A study of Homo sapiens with 12 samples.

Results

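H3K4me3 in the colonosphere-derived line SPH was compared with H3K4me3 in parental DLD1, region by region, at all 36400 of the 36400 regions counted for this mark. Regions were taken by no measured value: each region of the deposited H3K4me3 tables entered with its count in SPH and in DLD1, scaled to the library's total (CPM). The comparison uses 2 of the 12 libraries of the series, which profiled 3 histone marks in 4 related human colorectal cancer lines. DLD1 is an established colorectal adenocarcinoma line, labelled epithelial, and is the parent line here. The sample titles call all 4 lines parental, so the lines were told apart by their descriptions and characteristics. SPH is labelled mesenchymal and came from colonospheres, which are tumour cell spheres grown out of attachment. The lines used beside them are SA, labelled mesenchymal and derived from soft agar colonies, and METS, labelled epithelial and derived from a lung metastasis of a xenograft. All 4 lines carry the DLD1 background and were kept in McCoy's medium with fetal bovine serum and antibiotics, so SPH was profiled in the same medium as its parent. The labels do not say whether SPH is a clone or a pool of spheres.

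H3K4me3 is the methyl mark that SET1 and MLL methyltransferases place on nucleosomes flanking the start sites of active and poised genes. CpG-rich promoters usually carry it. H3K79me3, placed by DOT1L, lies over the 5′ part of transcribed genes, and Polycomb complexes place H3K27me3 on silenced chromatin.

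There was 1 library per line and mark, so no difference below has a replicate check or a p-value. The H3K4me3 libraries of DLD1, SA, SPH and METS held 6722508, 7753937, 7153391 and 7303186 counts. A fold of a named region divides its CPM in one line by that in the other. The range in parentheses after a fold is its exact 95% interval (Clopper-Pearson), for counting error alone and not for culture or library differences. Counts of a region or gene in 4 lines are given in the order DLD1, SA, SPH, METS, and counts in 2 lines in the order DLD1, SPH. A region was counted as different at 2-fold after 0.5 CPM was added to both values, and log2 ratios are on that scale. It was called strong if the higher of its SPH and DLD1 values reached 10 CPM. Region positions are on hg19.

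The deepest differences were single regions with nearly no counts in SPH, while most lower regions differed by a few fold. Most of the deepest lay at gene starts, but 54.8% of all strong regions also lay within 500 bp of a gene-body end. The promoters of some of the genes at the deepest losses are printed here, because the regions nearly absent in SPH lay just downstream of them. Each line gives the 250 bases before the start of the gene, 5′ to 3′ on its strand, from RefSeq (GRCh38.p14), with CpG dinucleotides in capitals. ZNF256 and ZNF141 encode C2H2 zinc finger proteins, CFAP53 a protein of cilia, POMT1 a protein O-mannosyltransferase, NOTCH3 a Notch receptor and SUSD3 a cell-surface protein with a sushi domain.

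ZNF256: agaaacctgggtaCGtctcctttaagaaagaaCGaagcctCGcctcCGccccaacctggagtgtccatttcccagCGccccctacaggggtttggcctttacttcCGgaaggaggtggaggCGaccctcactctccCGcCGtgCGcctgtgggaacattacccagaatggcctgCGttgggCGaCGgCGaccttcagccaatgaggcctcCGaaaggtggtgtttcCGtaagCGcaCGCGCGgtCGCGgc
ZNF141: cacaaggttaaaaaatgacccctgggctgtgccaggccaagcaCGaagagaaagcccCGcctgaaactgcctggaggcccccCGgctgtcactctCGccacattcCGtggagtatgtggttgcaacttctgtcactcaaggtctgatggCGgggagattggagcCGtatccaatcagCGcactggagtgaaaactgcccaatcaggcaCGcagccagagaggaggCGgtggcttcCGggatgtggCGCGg
CFAP53: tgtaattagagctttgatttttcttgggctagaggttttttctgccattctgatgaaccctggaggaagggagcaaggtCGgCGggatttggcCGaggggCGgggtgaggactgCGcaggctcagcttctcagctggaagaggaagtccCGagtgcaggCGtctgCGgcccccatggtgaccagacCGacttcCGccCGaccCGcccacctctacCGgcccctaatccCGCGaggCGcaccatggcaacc
POMT1: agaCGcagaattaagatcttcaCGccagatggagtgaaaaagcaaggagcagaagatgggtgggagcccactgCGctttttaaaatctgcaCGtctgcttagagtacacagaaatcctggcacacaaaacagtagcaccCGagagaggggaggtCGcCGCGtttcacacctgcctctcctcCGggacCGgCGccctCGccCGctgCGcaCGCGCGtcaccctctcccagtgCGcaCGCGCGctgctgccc
NOTCH3: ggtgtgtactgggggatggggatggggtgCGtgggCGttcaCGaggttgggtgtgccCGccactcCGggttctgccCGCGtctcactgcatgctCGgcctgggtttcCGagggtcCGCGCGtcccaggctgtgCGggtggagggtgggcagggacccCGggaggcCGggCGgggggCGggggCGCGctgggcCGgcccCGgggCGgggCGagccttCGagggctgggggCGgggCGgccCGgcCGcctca
SUSD3: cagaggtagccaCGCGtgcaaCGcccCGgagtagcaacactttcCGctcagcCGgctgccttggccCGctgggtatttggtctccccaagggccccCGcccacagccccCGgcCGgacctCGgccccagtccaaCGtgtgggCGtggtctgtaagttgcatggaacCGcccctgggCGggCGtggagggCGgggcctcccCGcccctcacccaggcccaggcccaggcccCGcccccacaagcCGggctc

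These stretches lie on chr19:57947707-57947956 (minus strand), chr4:337564-337813 (plus), chr18:50266496-50266745 (minus), chr9:131502668-131502917 (plus), chr19:15200996-15201245 (minus) and chr9:93058451-93058700 (plus) of GRCh38. They hold 22, 13, 16, 21, 28 and 20 CpG dinucleotides in that order, where the median over 35116 RefSeq promoters of the same length was 11 (middle 50% of promoters from 3 to 23). RefSeq had an entry for 13 of the 14 genes whose start lay within 2 kb of one of the 15 lowest regions. Their median was 16 CpG (range 9 to 29), and 11 of the 13 lay above the median of all promoters. The GC box GGGCGG stood on either strand in 9 of the 13, against 42.6% of all promoters, and the box CCAAT in 5 of the 13, against 32%. Such matches describe letters only. Promoters with H3K4me3 were not compared here with promoters without it.

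Most H3K4me3 regions had similar levels in SPH and DLD1. Of the 36400 regions, 1303 (3.58%) were at least 2-fold higher in SPH and 1215 (3.34%) at least 2-fold lower. Of the 22672 strong regions, 342 (1.51%) were higher and 421 (1.86%) lower, and the median log2 ratio was -0.01, with 79.5% of them within 0.5 of 0. The highest regions differed least often: of the 9430 regions at 50 CPM or more, 21 (0.223%) were higher and 16 (0.170%) lower. Between 2 and 5 CPM, where a value rests on few counts, 8.93% were higher and 7.22% lower.

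Large differences among strong regions were mostly losses. This lean was not particular to SPH. Against the same DLD1 library, 140 strong regions were at least 2-fold lower and 14 higher in SA, and 151 lower and 42 higher in METS. Strong regions were defined from SPH and DLD1 alone. How the regions were called is not known, so gains outside the counted regions cannot be seen. At 4-fold, 109 strong regions were lower and 3 higher, and the log2 ratios ran from -5.62 to 2.56. At 2-fold the balance also moved with the scaling: 44.8% of the strong regions past the threshold were higher with library totals, and 33.7% after quantile normalization of both lines.

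**Figure D1:**
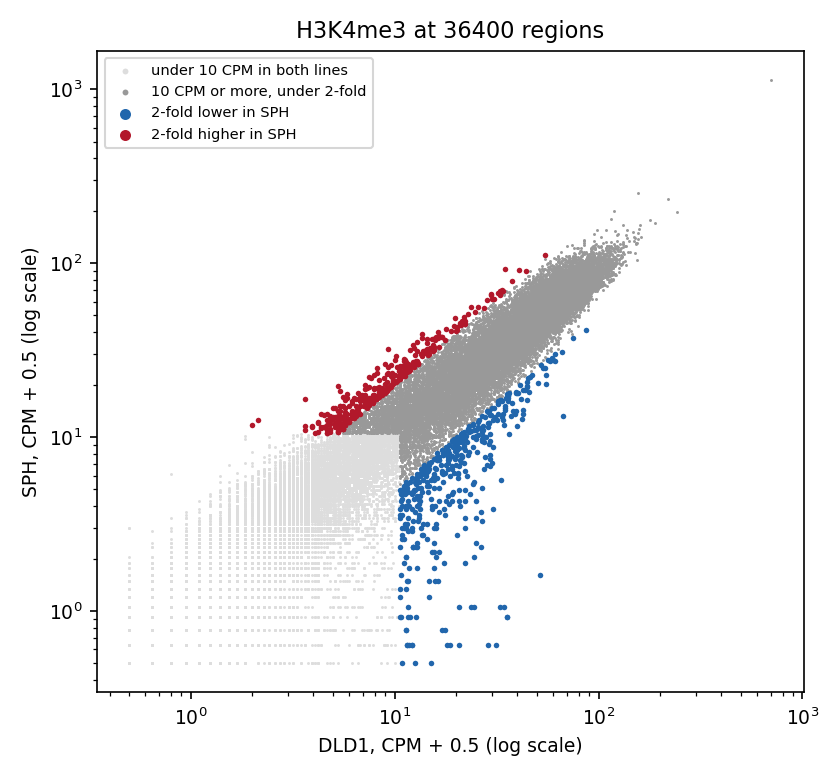
H3K4me3 in DLD1 (x axis) and SPH (y axis) at 36400 regions, as CPM with 0.5 CPM added, both axes logarithmic. Each point is 1 region; red points are the 342 strong regions at least 2-fold higher in SPH, blue points the 421 at least 2-fold lower, and the blue points reach down to the floor of SPH while the red points stay near the diagonal.

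At the 15 lowest strong regions, SPH had 0 to 1.12 CPM (median 0.280), where DLD1 had 12 to 51 CPM (median 23.9). In 14 of the 15 the middle of the region lay within 2 kb of a gene start, with genes looked up after the positions were seen. Strong regions in general often lie near gene ends. Of the 12 lowest regions in reach of the H3K27me3 gene bodies, 9 lay within 500 bp of a gene-body end, where 54.8% of strong regions did. The genes are grouped below by what they encode.

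The first group is C2H2 zinc finger genes, a large family of DNA-binding proteins, many of which recruit KAP1 through a KRAB domain. ZNF256 (chr19:58458529-58458946, 363 bp inside the gene from its start) had 208, 70, 1 and 299 counts. SPH was 221-fold lower than DLD1 (39.3 to 8784). ZFP2 (chr5:178323009-178323430) had 236, 93, 3 and 295 counts, 83.7-fold lower in SPH (28.3 to 409). The same order held at both genes: METS highest, DLD1 next, SA lower, and SPH close to 0.

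ZNF442 (chr19:12475982-12476440) had 235, 93, 3 and 214 counts, 83.4-fold lower in SPH (28.2 to 407). ZNF141 (chr4:331708-332143) had 228, 137, 4 and 393 counts, 60.7-fold lower in SPH (23.4 to 225). At ZNF141 SA kept more than at the other zinc finger genes, and METS was above DLD1. These 4 genes were already known from earlier results of these data to be low, so their place in the list of zinc finger genes is no separate evidence.

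A second group is linked to cilia and flagella. CFAP53 (chr18:47792487-47792920), needed for motile cilia and left-right patterning, had 190, 43, 1 and 207 counts, 202-fold lower in SPH (35.9 to 8027). NEK10 (chr3:27410519-27410939), a NIMA-related kinase of ciliated cells, had 122, 63, 1 and 133 counts, 130-fold lower (22.9 to 5169). ROPN1L (chr5:10441503-10441978), a sperm flagellum protein, had 161, 54, 4 and 84 counts, 42.8-fold lower (16.4 to 159). METS had the same CPM as DLD1 at CFAP53 (28.3) and nearly so at NEK10 (18.2 and 18.1), and had 0.480 times the CPM of DLD1 at ROPN1L. This grouping was made after the values were seen.

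Signalling genes formed another group, also put together after the values were seen. At NOTCH3 (chr19:15311350-15311819) the counts were 116, 28, 2 and 58, 61.7-fold lower in SPH (16.7 to 516). ADM2 (chr22:50919989-50920413), a peptide hormone related to adrenomedullin, had 155, 41, 4 and 151 counts, 41.2-fold lower (15.8 to 153). At GPRASP3 (chrX:101975640-101976058), a member of a family that sorts G protein-coupled receptors, counts were 98, 34, 0 and 94. With the floor of 3 counts put in place of 0, SPH was 34.8-fold lower than DLD1 there. The exact interval allows a difference as small as 27.7-fold. NOTCH3 was the one of these 3 where METS was clearly below DLD1, at 0.460 times its CPM.

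MAST4 (chr5:65892073-65892530), a microtubule-associated kinase, had 81, 28, 0 and 57 counts. With the floor of 3 counts in place of 0, SPH was 28.7-fold lower, and the exact interval allows a difference as small as 22.8-fold. C2orf88 encodes a small anchoring protein of protein kinase A. Its region (chr2:191045103-191045715) lay inside the gene body, and had 343, 130, 8 and 260 counts, 45.6-fold lower (22.9 to 107).

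The remaining genes encode enzymes and a protein of little-described function. MGST1 (chr12:16500519-16501031), a membrane glutathione transferase, had 118, 64, 1 and 158 counts, 126-fold lower in SPH (22.1 to 5001). POMT1 (chr9:134378347-134378782) had 217, 128, 4 and 136 counts, 57.7-fold lower (22.2 to 214). N4BP2L1 (chr13:33001816-33002328) had 136, 74, 1 and 108 counts, 145-fold lower (25.5 to 5758). At each of these genes SA lay between DLD1 and SPH.

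**Figure D2:**
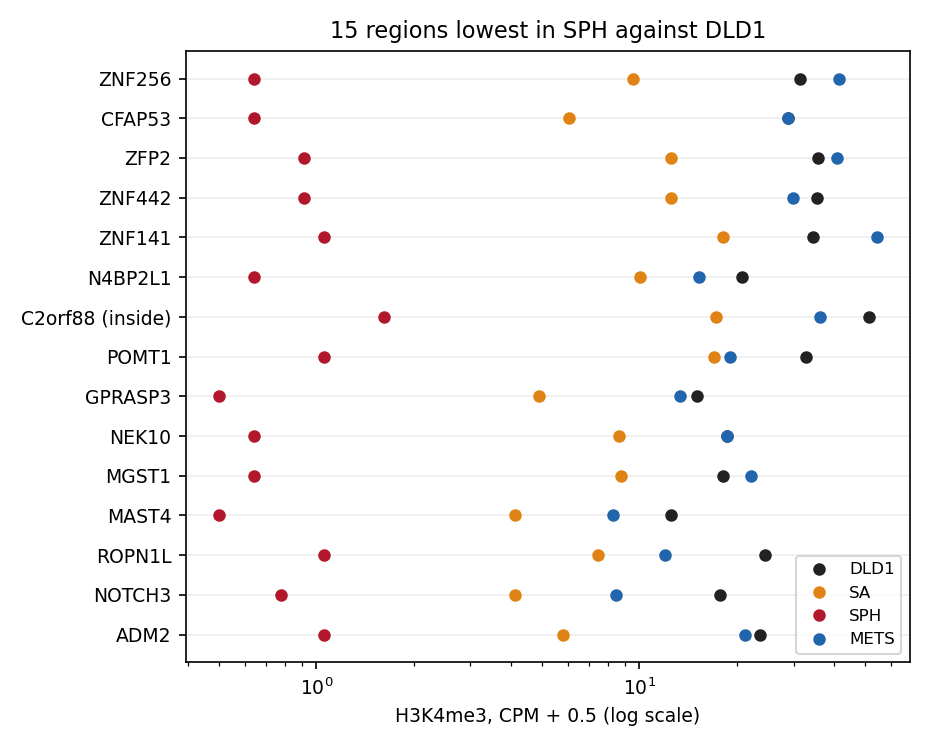
H3K4me3 at the 15 strong regions with the lowest log2 ratio of SPH to DLD1, as CPM with 0.5 CPM added on a logarithmic x axis, 1 row per region named by its gene. Points are single libraries of DLD1 (black), SA (orange), SPH (red) and METS (blue); SPH is the lowest point in all 15 rows and SA lies between SPH and DLD1 in all 15.

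SA had intermediate levels at these 15 regions, at 19.6 to 52.1% of the CPM of DLD1 (median 32.9%), and was above SPH in all 15. METS had 46.0 to 159% of it (median 88.3%) and was below DLD1 in 9 of 15. These shares use the same DLD1 library as the comparison of SPH with DLD1. The libraries of SA and METS were not used to choose the regions, and a comparison between them shares no library with it. SA was below METS at 15 of the 15, at least 2-fold at 12 of them, with a median log2 ratio of -1.25.

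Over all 421 strong regions lower in SPH, SA was below METS at 375 (89.1%), where it was below METS at 43.9% of strong regions. SA was at least 2-fold below METS at 76 of the 421 (18.1%), against 0.481% of strong regions, and at least 2-fold above METS at 5 (1.19%), against 0.265%. Over the 421, the medians of DLD1, SA, SPH and METS were 18.1, 10.3, 5.87 and 15.1 CPM. The 342 strong regions higher in SPH differed less between SA and METS. There SA was at least 2-fold above METS at 4 (1.17%) and below it at 4, the median log2 ratio of SA to METS was 0.18 against 0.03 over strong regions, and the medians in DLD1, SA, SPH and METS were 7.44, 10.2, 17.2 and 9.11 CPM.

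Further genes with starts at deep losses were looked up after the values of their regions were seen. CALHM2, a calcium homeostasis modulator channel, had 70, 58, 0 and 89 counts. At NCALD, a neuronal calcium sensor, the counts were 135, 50, 4 and 103. SUSD3 and CALCA, which encodes calcitonin and CGRP, were nearly lost in SA as well: SUSD3 had 74, 6, 1 and 106 counts and CALCA 58, 5, 0 and 87. SLC4A4, a sodium bicarbonate cotransporter, had 76, 66, 1 and 74, so SA there stayed close to DLD1. Of 7 genes at places that earlier results of these data had named, among them BAHCC1, PCSK5 and TNS2, 5 had a region within 2 kb of the start, and SUSD3 and CALCA were the ones lower.

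CYP2E1, a cytochrome P450, had 78, 26, 1 and 71 counts. The Hedgehog-binding protein gene HHIP had 82, 31, 3 and 102. TRIM36, a ubiquitin ligase, had 73 and 2 counts, MYLK3, a myosin light chain kinase, 77 and 3, and NRIP3 75 and 3. DNER, a Notch-related transmembrane protein, kept more, with 176 and 20 counts, 9.36-fold lower (5.88 to 15.7). Some losses lay away from the 1 start used for the gene, and whether they lay at another start was not checked. A region inside DNMT3A, a DNA methyltransferase, went from 175 counts in DLD1 to 13 in SPH (chr2:25474542-25474965). The summed H3K4me3 at the DNMT3A start used was 109 and 90.4 CPM. A region inside NFIB, a transcription factor, went from 106 to 7 counts (chr9:14348498-14348946).

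Runs of 3 or more neighbouring lower regions, with gaps of at most 5 kb, were found at 2 places. At PCDH7, a protocadherin, 4 regions at and before the start (chr4:30718776-30722412) together had 655, 441, 111 and 643 counts, 6.28-fold lower in SPH (5.13 to 7.75). At WNT11, a ligand of non-canonical Wnt signalling, 3 regions (chr11:75919573-75921773) had 413, 283, 145 and 436 counts, 3.03-fold lower (2.50 to 3.69). SA lay between DLD1 and SPH at both, and METS had CPM close to that of DLD1 (88 and 97.4 at PCDH7, 59.7 and 61.4 at WNT11).

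The gains were smaller. At the 15 highest strong regions, SPH had 10.5 to 31.6 CPM (median 14.3) and DLD1 1.49 to 8.78 CPM (median 4.02). SPH was the highest of the 4 lines at 13 of the 15. The middle of 4 of them lay within 2 kb of the start of a named gene, and 5 lay further inside the body of one. The other 6 lay in no named gene, of which 2 were within 10 kb upstream of one. Only genes looked up by name were considered here, so other genes may lie nearer.

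The largest gain, at chr14:57322638-57323066, had no named gene: it had 10, 16, 80 and 14 counts, 7.52-fold higher in SPH (3.88 to 16.3). NR1D1 encodes REV-ERBalpha, a nuclear receptor of the circadian clock. Its region lay 1940 bp inside the gene (chr17:38254853-38255223) with 11, 47, 86 and 29 counts, 7.35-fold higher (3.91 to 15.3). Summed over the 3 regions within 2 kb of its start, NR1D1 had 459 and 670 counts, 1.37-fold higher (1.22 to 1.55), so the gain lay at the edge of a promoter that already carried the mark.

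BAHCC1, which encodes a protein with a BAH domain, had 2 of the 15 regions. The one 1346 bp before its start (chr17:79372012-79372377) had 21, 73, 114 and 65 counts, 5.10-fold higher in SPH (3.18 to 8.56). The one 4840 bp before it (chr17:79368491-79368909) had 32, 92, 137 and 75 counts, 4.02-fold higher (2.72 to 6.11). DLD1 was the low line at both, and SA and METS lay between it and SPH.

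PCSK5, a proprotein convertase, gained 1371 bp inside its start (chr9:78506737-78507126), with 59, 170, 226 and 141 counts, 3.60-fold higher in SPH (2.69 to 4.88). DDX39A, an RNA helicase of mRNA export, gained 1569 bp inside its start (chr19:14528465-14528781), with 21, 45, 79 and 50 counts, 3.54-fold higher (2.16 to 6.02). At RHOB, a small GTPase, the region 4569 bp before the start (chr2:20641987-20642545) had 23, 32, 79 and 17 counts, 3.23-fold higher (2.01 to 5.38). The sum at the start of RHOB itself was 83.9 CPM for DLD1 and 69.3 CPM for SPH, so the start did not share the gain.

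Among regions inside genes, SKAP1, an adaptor of T-cell receptor signalling, had 33, 73, 128 and 49 counts (chr17:46276329-46276779), 3.65-fold higher in SPH (2.47 to 5.52). The start of SKAP1 went the other way, with 24, 2, 0 and 28 counts. TNS2, a tensin of focal adhesions, had 52, 216, 176 and 70 counts (chr12:53443886-53444313), 3.18-fold higher (2.32 to 4.42), and was the one of these regions where SA was above SPH. The regions inside TBC1D22A, a Rab GTPase-activating protein, HNRNPF, a splicing regulator, and IDH3A, a subunit of the citric acid cycle enzyme isocitrate dehydrogenase, were 3.36-fold, 3.36-fold and 3.21-fold higher in SPH. The IDH3A region lay 17341 bp from the start used. The IDH3A interval differed in length from RefSeq's gene, and whether the region lay near another start was not checked. The other regions without a named gene lay on chromosome 2, at chr2:157749314-157749752, chr2:133027415-133027729 and chr2:89855399-89855851, and were 3.26-fold, 3.20-fold and 3.20-fold higher. The second of these opens a run of 3 higher regions (chr2:133027415-133029469) with 187, 198, 512 and 272 counts, 2.57-fold higher (2.17 to 3.06). The other runs of higher regions were mitochondrial. No region was left out for lying in repeated or duplicated sequence, and whether the gains without a named gene lie in such sequence was not checked.

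**Figure D3:**
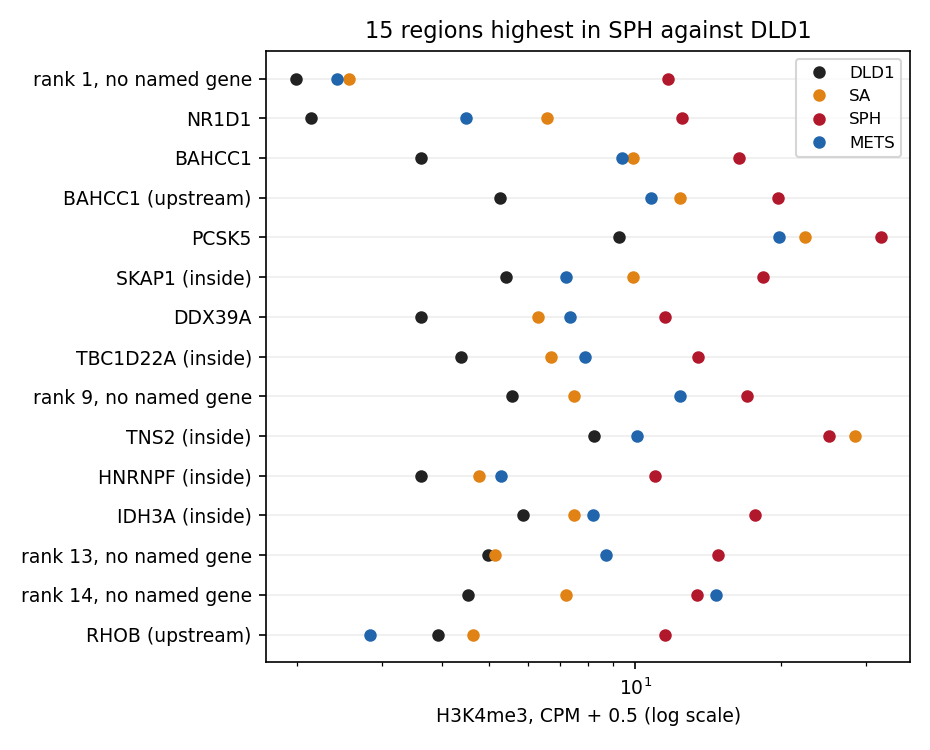
H3K4me3 at the 15 strong regions with the highest log2 ratio of SPH to DLD1, as CPM with 0.5 CPM added on a logarithmic x axis, 1 row per region named by its gene or by its rank where no gene was named. Points are single libraries of DLD1 (black), SA (orange), SPH (red) and METS (blue); SPH is the highest point in 13 rows, and SA or METS is highest in the other 2.

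Differences were also counted by position. Distances were taken from the middle of a region to the nearest end of an interval of the H3K27me3 table, whose rows are gene bodies, so an end is a gene's start or its last base. Of the 3369 strong regions under 250 bp from such an end, 106 (3.15%) were lower in SPH and 21 (0.623%) higher. At 250 to 500 bp the shares lower and higher were 0.901 and 0.729% of 7548 regions, and at 500 to 1000 bp 1.58 and 1.37% of 3354. At 1000 to 2000 bp they were 1.85 and 2.97% of 1782, at 2000 to 5000 bp 2.71 and 1.86% of 1180, and at 5 to 20 kb 3.42 and 2.52% of 1667. Among regions 20 kb or more away, 2.97% of 1011 were lower and 4.06% higher. The share lower was thus similar under 250 bp and from 5 kb outwards, and the share higher was smallest under 500 bp.

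Within 500 bp of an end lay 54.8% of strong regions, 45.9% of lower and 27.1% of higher ones. The median distance was 450 bp for strong regions, 627 bp for lower and 1213 bp for higher ones, and 324 bp for the 39 in reach of the table that were at least 8-fold lower. Levels differ with position, and levels move the share past 2-fold. Among strong regions under 50 CPM, a comparison added after the values were seen, the shares under 250 bp were 4.51% lower and 0.884% higher, and at 1000 to 2000 bp 2.48% lower and 4.08% higher.

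**Figure D4:**
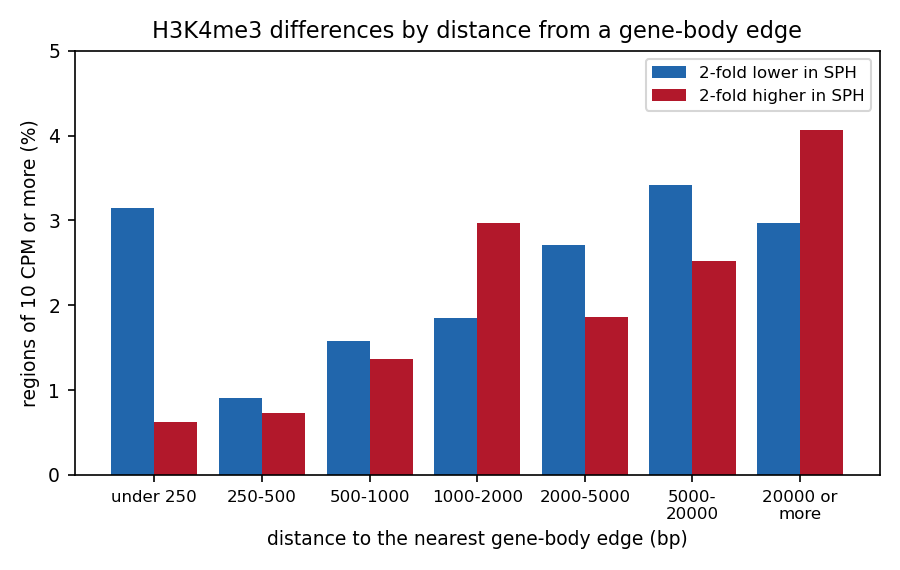
Share of strong H3K4me3 regions (y axis, percent) at least 2-fold lower (blue) or higher (red) in SPH than DLD1, by distance from the region's middle to the nearest gene-body end (x axis, bp). Lower regions make up 3.15% under 250 bp against 0.623% for higher ones, lower regions reach 3.42% at 5 to 20 kb, and the higher ones are the larger share at 1000 to 2000 bp and at 20 kb or more.

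Lower regions mostly stood alone. Of the 421 lower strong regions, 296 (70.3%) had no other counted region within 2 kb, against 25.7% of strong regions and 22.5% of the higher ones. Limited to regions under 50 CPM the shares were 70.1% of lower, 26.5% of strong and 23.7% of higher regions. The higher regions more often stood beside a stronger one: 59.9% had one within 2 kb, against 37.4% of strong and 17.1% of lower regions. That stronger neighbour lay a median of 880 bp away, had 3.17 times the counts of the gained region, and had a median log2 ratio of 0.15. These counts were made after the values were seen.

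Mitochondrial DNA carries no nucleosomes, and its regions are given as a measure of what else the libraries hold. Its 16 regions together had 890, 1259, 2309 and 1822 counts, 2.44-fold higher in SPH than in DLD1 (2.26 to 2.64), and 13 of the 16 passed 2-fold. They make up 11 of the 342 higher strong regions, and 331 remained without them. The part that unspecific recovery of DNA had in the gains was not tested. Over chromosomes 1 to 22 and X the ratio of SPH to DLD1 ran from 0.961 on chromosome 3 to 1.05 on X. Regions on other nuclear sequences, Y among them, are not in that range. A strong region on Y (chrY:10020443-10020788) had 33, 36, 104 and 53 counts, 2.96-fold higher in SPH (1.98 to 4.52).

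The labels call SPH mesenchymal and DLD1 epithelial, and gene lists for both states were summed within 2 kb of each gene start. Over 12795 such windows at interval ends, 105 (0.821%) were higher and 432 (3.38%) lower in SPH, with a median log2 ratio of -0.03. Of 162 listed genes, 88 had a counted region in the window, and absence of a region says nothing of the signal there.

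Of 15 epithelial junction genes, 12 had a region, 1 was higher and 0 lower, and the median log2 ratio was -0.06. With 3.38% of all windows lower, a count of 0 among 12 does not set the list apart. The member past 2-fold was CLDN4, a tight-junction claudin, with 53, 73, 136 and 51 counts, 2.41-fold higher in SPH (1.74 to 3.38). Its 1 region (chr7:73214056-73214488) was placed by the 5′ end of the CLDN4 gene-body interval. Other starts of CLDN4 were not considered, so the value may not be that of its main promoter. CDH1, the E-cadherin gene, had 596 and 577 counts, and OCLN, the occludin gene, 1114 and 1107. CLDN7 had 847 and 975 and the desmoplakin gene DSP 912 and 846. EPCAM had 204 and 332 counts.

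Of 12 genes for simple-epithelium keratins and epithelial regulators, 0 passed 2-fold and the median was 0.01. KRT18 had 827 and 1025 counts, KRT19 953 and 921, ESRP1, an epithelial splicing factor, 954 and 1178, and KRT8 841 and 1046. KRT8 and KRT18 are neighbours, and the 3 regions summed for KRT18 are also among the 4 of KRT8, so their values are not separate. ELF3, an epithelial ETS factor, was at the edge of the threshold with 49 and 103 counts, 1.98-fold (1.39 to 2.84).

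No mesenchymal gene with a region passed 2-fold. Of 14, 6 had a region, 0 passed 2-fold and the median was -0.02. CAV1, the caveolin gene, had 559 and 593 counts, the integrin gene ITGA5 393 and 410, CD44 355 and 392 and TGFBI 235 and 206. VIM, CDH2, FN1 and SPARC had no region in the window. Neither had CTNNB1 or TJP1, which epithelial cells use.

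Of 9 EMT transcription factors, 2 had a region. PRRX1, a homeobox factor, was lower, with 76, 45, 25 and 73 counts, 3.23-fold (2.04 to 5.31). Its 1 region (chr1:170633429-170633881) lay more than 1 kb from the start used, the 5′ end of its gene-body interval. Other starts of PRRX1 were not considered. ZEB1, a repressor of CDH1, had 483 and 463 counts in DLD1 and SPH. H3K27me3 over the ZEB1 body was 184, 112, 89 and 95.5 CPM in the 4 lines, 2.07-fold lower in SPH than in DLD1 (1.95 to 2.19), and METS, labelled epithelial, was close to SPH.

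Of 13 intestinal identity genes, 6 had a region, 0 passed 2-fold and the median was -0.03. SOX9 had 1121 and 1073 counts, KLF4 915 and 801, GATA6 904 and 1031 and CEACAM5, the carcinoembryonic antigen gene, 59 and 33. Of the defining markers of colon, CDX2 had 23 and 34 H3K4me3 counts at its 1 region and 1832 and 2285 H3K79me3 counts over its body. VIL1 had 3 and 5 H3K4me3 counts, and no region was counted at CDX1, CDH17 or KRT20. Of the genes of other cell types, COL1A1, a fibroblast collagen, had 104 and 87 counts and ACTA2 563 and 561. The ACTA2 counts came from 1 region (chr10:90750571-90751188) near the 5′ end of its gene-body interval. A window sum does not part a gene from a neighbour that starts in the same window, so it does not show that ACTA2 is active. PTPRC, CD3E, COL1A2 and ALB had no region.

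Of 26 Wnt, Notch and stem cell genes, 18 had a region, 0 passed 2-fold and the median was -0.13. MYC had 951 and 1136 counts, EPHB2 782 and 758, EPHB3 780 and 643 and AXIN2 734 and 805. PROM1, which encodes the surface antigen CD133, had 146 and 86 counts. Within 1 kb of its start it passed 2-fold, with 90 and 42 counts. LGR5, the crypt stem cell receptor, had 528 and 455 counts, and NOTCH1 617 and 487, where NOTCH3 had lost its region.

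Of 48 zinc finger genes, 14 had a region and 4 were lower, the 4 described above; the median was -0.13. The other 10 lay between log2 ratios of -0.33 and 0.16. ZNF44 had 597 and 606 counts, ZNF551 538 and 568, ZNF17 499 and 539 and ZNF136 473 and 490. The 11 housekeeping genes had 0 past 2-fold and a median of 0.14.

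**Figure D5:**
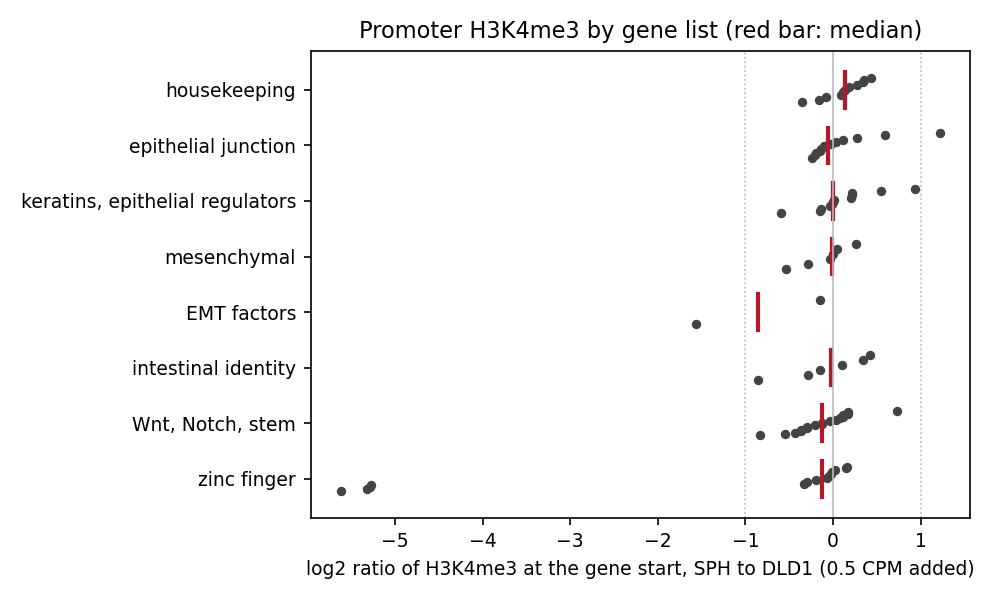
Log2 ratio of summed H3K4me3 within 2 kb of the gene start, SPH to DLD1 with 0.5 CPM added (x axis), for the members of 8 gene lists (y axis) that had a counted region. Each point is 1 gene, the red bar is the list's median, and dotted lines mark 2-fold; most points lie between the dotted lines, with CLDN4 to the right and PRRX1 and 4 zinc finger genes to the left.

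The other 2 marks are readouts that did not choose the regions. H3K79me3 was seldom counted beside the lower regions: 79 of the 421 (18.8%) had an H3K79me3 region within 5 kb, against 77.4% of strong regions and 81.9% of those higher in SPH. The lower regions also had less H3K4me3 in DLD1, a median of 18.1 CPM against 38.7 over strong regions. These shares were not matched for level. Of the 75 distinct H3K79me3 regions beside lower H3K4me3, 19 (25.3%) were at least 2-fold lower in SPH and 6 (8%) higher. Over all 157878 H3K79me3 regions 5.11% were lower and 3.03% higher, and over those beside strong regions 2.02% and 8.27%. The depth there was low, with a median of 13 counts in DLD1 and 10 in SPH, against 40 and 39 beside strong regions.

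Beside the regions higher in SPH, 16 of 278 distinct H3K79me3 regions (5.76%) were lower and 15 (5.40%) higher. H3K27me3 was measured over gene bodies. At the bodies holding lower regions its median was 0.601 CPM per kb in DLD1 and 0.539 in SPH, against 0.213 and 0.189 at the bodies holding any strong region. Of 273 such bodies, 12 (4.40%) were at least 2-fold lower in SPH and 5 (1.83%) higher, where 1.38 and 0.196% of the bodies holding any strong region and 1.39 and 0.684% of all 50000 intervals were. So H3K27me3 lay at a higher level there in both lines, and few of these bodies passed 2-fold in either direction.

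At the genes of the lowest regions, H3K27me3 could be read over 11 of the 14, with log2 ratios from -0.65 to 0.64, and 0 passed 2-fold. H3K79me3 had a counted region over 8 of the 14, of which 4 were at least 2-fold lower in SPH and 0 higher. It was lower over ZNF141, with 199 and 6 counts, 27.2-fold (12.3 to 75). Over MGST1 it was 21.9-fold lower (7.22 to 108), with 80 and 3 counts, and over ZNF256 10.7-fold lower (3.39 to 53.9), with 39 and 3. Over ZNF442 it had 7 and 0 counts, too few for a close value. At ZNF141, MGST1 and ZNF256 the mark of promoters and that of transcribed bodies were both lower. H3K79me3 had 9 and 9 counts over NOTCH3, 2 and 2 over CFAP53 and 1 and 2 over MAST4, too few to read a difference or its absence. POMT1, whose start region was lost, had more H3K79me3 in SPH, with 29 and 50 counts, 2.10-fold (1.31 to 3.45), which was short of 2-fold after 0.5 CPM was added.

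Among the genes with gains, BAHCC1 had 274 and 438 H3K4me3 counts summed within 2 kb of its start, higher in SPH with a fold interval of 1.29 to 1.75, short of 2-fold, beside its single regions past it. Its H3K27me3 was 805 and 216 counts, 4.87-fold lower (4.19 to 5.69). Its H3K79me3 was 745 and 3581 counts, 5.86-fold higher in SPH (5.42 to 6.35). NR1D1 had 3.34-fold more H3K79me3 in SPH (2.66 to 4.23). PCSK5 had 493 and 852 H3K4me3 counts summed at its start, 1.62-fold higher (1.45 to 1.82). It had 2.14-fold less H3K27me3 (2.06 to 2.23) and similar H3K79me3, with 31 and 25 counts, so the genes with gains did not share 1 pattern.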

How the data were processed

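H3K4me3, H3K27me3 and H3K79me3 ChIP-seq libraries of 4 lines, 1 each, were read as raw counts per region, deposited by the authors (judged from the values: whole numbers with differing totals). The build was hg19, per the submitters' processing notes, and the kit was Diagenode iDeal, per the labels' protocols. The aligner, region caller and input control are not given in the sources used here. The H3K27me3 table states that 7773 entries were skipped and was held only to chromosome 19.

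Counts were scaled to the library total. No test was run, as each line had 1 library. Copies made by PCR are not marked in the tables, and intervals and the floor of 3 counts therefore cover counting error only. Named were the 15 lowest and 15 highest strong regions, list members past 2-fold with up to 4 others of most counts, and runs of 3 or more. Other names, the groups by function, neighbours, distances and settings added to the plan were chosen after the values were seen. Members and lists were chosen with earlier results of these data known.

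Gene names rest on known hg19 gene positions, with no hg19 annotation at hand. Listed genes matched a gene body of the H3K27me3 table by a start within 1 kb (121 of 162), were placed by their known start where that table did not reach and RefSeq's length was within 12% (23), or stayed unmatched (18). 1 further listed gene is not reported here. These tolerances were set after seeing the files. For each gene only 1 start was used, the 5′ end of the gene-body interval where one matched. Other starts of a gene were not considered, so a region called inside or before a gene may lie at another start. Names at other regions were given after their positions were seen, and rest on chromosome, strand and length in RefSeq. C2orf88 had no entry there, and CYP2E1, IDH3A, SLC4A4, MYLK3 and ROPN1L differed in length. Promoter sequences were matched to RefSeq by symbol.

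Alternatives were TMM factors (edgeR 4.0.16), DESeq2 1.42.0 size factors, quantile normalization, other added values, thresholds and windows. Python 3.11.15, pandas 2.3.3 and SciPy 1.17.1 were used. The counts of called regions and the intervals were tried on simulated data that varied by counting error alone. Such data cannot test for differences of culture, library or PCR copies.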

Additional observations from a re-analysis of the deposited data

How the results depend on the processing

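No paired analysis was possible because each line had 1 library per mark, and for the same reason no replicate could be left out. Scaling by TMM factors, DESeq2 size factors or quantile normalization, and leaving out the mitochondrial genome, kept the 4 counts of regions within 1.5 times. Higher and lower regions numbered 2307 and 1965 with 0.1 CPM added, and 352 and 656 with 2 CPM added. They numbered 108 and 112 among regions at or above the median, 5099 and 3071 at 1.5-fold, and 15 and 312 at 4-fold. Strong higher regions numbered 202 with 2 CPM added. At 1.5-fold, strong regions numbered 2096 higher and 1318 lower, and at 4-fold 3 and 109. More lower than higher strong regions were thus found at 2-fold and 4-fold and fewer at 1.5-fold. Of 28 recounts of the gene lists, 26 stayed within 1.5 times. With a window of 1 kb, the EMT factors had 0 members past 2-fold, as PRRX1 had no region that near the start used. The Wnt, Notch and stem cell genes had 1, PROM1. The 30 named regions kept their direction under the 3 scalings, and in 90 of 90 values the fold stayed within its counting interval. This could hardly come out otherwise. The regions were picked for extreme ratios, the intervals are wide, and the TMM factors were 0.999 for DLD1 and 1.02 for SPH. Depth limits the weak regions most, and a lone library cannot part a line from its culture or preparation.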
